A study of Mus musculus with 2 samples.

Results

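Cycling macrophages are macrophages whose transcripts show that they are copying their DNA or dividing. Here they were taken from single-cell RNA sequencing libraries of mouse salivary gland, as barcodes with at least 500 UMIs (unique molecular identifiers, each counting 1 captured transcript), at least 300 genes and at most 10% of UMIs in mitochondrial genes. A barcode was kept when it held at least 4 UMIs of the macrophage genes *C1qa*, *C1qb*, *C1qc* and *Csf1r* together and at least 2 UMIs of the proliferation genes *Mki67* and *Top2a* together. It also had to hold 0 UMIs of *Cd3d*, *Cd3e* and *Cd3g*, 0 of *Cd79a* and *Ms4a1*, and at most 1 of the endothelial genes *Pecam1* and *Cdh5*. This left 135 cycling macrophages of 10591 barcodes past the filter, 19 of 4917 in the NOD library and 116 of 5674 in the CD1 library. They were set against the non-cycling macrophages, which passed the same limits with 0 UMIs of *Mki67* and *Top2a* (405 NOD and 2022 CD1). Since the members were chosen by these measured values, the levels of the choosing genes, and of other cycle genes against the non-cycling macrophages, are given below as a description.

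The NOD library was made from untreated female NOD/ShiLtJ mice, an inbred strain that spontaneously develops lymphocytic infiltration of the salivary glands and serves as a model of Sjögren's disease, and the CD1 library from untreated female mice of the outbred CD1 strain. All mice were 20 weeks old, and the submandibular and sublingual glands of the mice of a strain were pooled into 1 stromal-enriched library after depletion of epithelial (EpCAM) and erythroid (Ter119) cells. The labels give 3 mice, and the study's methods give 4 per strain. With 1 library per strain there is no replicate, so strain cannot be told apart from pool, dissociation or library, no test was made, and the 95% intervals below cover counting error only.

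Gland macrophages are maintained by CSF1 receptor signaling and by local division, and they clear debris and present antigen. A cell that enters the cycle first induces cyclins and E2F factors in G1, loads the MCM helicase on replication origins, makes nucleotides and DNA in S phase, and then builds the CDK1-driven mitotic machinery in G2 and M, which the anaphase-promoting complex takes down at exit. Expression of S-phase genes is driven through E2F sites, and many G2/M genes carry CCAAT boxes and a CHR element (cell cycle genes homology region) in their promoters.

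The 250 bases upstream of the start of 4 cycle genes are shown. Among the S-phase and G2/M genes used that had a promoter entry, these stood highest in cycling over non-cycling macrophages. Those of S phase were *Clspn*, an adaptor of the replication checkpoint, and *Tk1*, a thymidine kinase. Those of G2/M were *Cenpf*, a kinetochore protein, and *Ube2c*, the ubiquitin-conjugating enzyme of the anaphase-promoting complex. The sequences are RefSeq's on GRCm38.p6, read 5′ to 3′ on the gene's own strand, in lower case with motif matches in capitals, and the last base printed is next to the start. The motifs searched, on both strands, were the CCAAT box (CCAAT), the CHR element (TTTGAA) and an E2F motif (TTTCCCGC or TTTGGCGC).
Clspn (chr4:126556730-126556979, + strand): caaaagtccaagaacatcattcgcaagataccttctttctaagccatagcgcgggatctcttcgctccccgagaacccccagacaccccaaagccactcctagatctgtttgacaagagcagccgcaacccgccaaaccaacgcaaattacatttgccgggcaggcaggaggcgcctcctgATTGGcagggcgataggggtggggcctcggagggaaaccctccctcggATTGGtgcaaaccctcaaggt
Tk1 (chr11:117826015-117826264, − strand): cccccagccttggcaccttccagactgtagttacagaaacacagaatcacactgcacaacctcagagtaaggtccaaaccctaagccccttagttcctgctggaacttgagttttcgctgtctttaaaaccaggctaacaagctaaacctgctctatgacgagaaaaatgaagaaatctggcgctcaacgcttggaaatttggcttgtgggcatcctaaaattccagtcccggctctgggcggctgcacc
Cenpf (chr1:189688087-189688336, − strand): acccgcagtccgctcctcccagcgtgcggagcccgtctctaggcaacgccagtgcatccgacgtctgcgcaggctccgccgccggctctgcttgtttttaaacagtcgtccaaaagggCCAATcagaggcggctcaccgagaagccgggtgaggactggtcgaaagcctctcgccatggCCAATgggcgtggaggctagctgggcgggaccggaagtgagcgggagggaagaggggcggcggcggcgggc
Ube2c (chr2:164769679-164769928, + strand): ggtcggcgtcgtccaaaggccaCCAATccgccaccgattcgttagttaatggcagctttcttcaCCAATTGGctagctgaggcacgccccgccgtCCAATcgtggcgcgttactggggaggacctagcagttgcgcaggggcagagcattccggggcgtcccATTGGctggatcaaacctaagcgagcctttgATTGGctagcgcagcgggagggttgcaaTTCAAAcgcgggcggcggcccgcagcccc
*Clspn* and *Cenpf* each had 2 matches, all to the CCAAT box, and *Tk1* had none of these letters in the window. *Ube2c* had 7 matches, 6 to the CCAAT box (of which 2 overlap) and 1 to the CHR element. For each of the 27025 genes with a promoter entry in RefSeq's table, the first entry was searched. Of these promoters 34.5% held a CCAAT match, against 61.8% (21 of 34) of the S-phase genes and 67.3% (37 of 55) of the G2/M genes that had an entry. The CHR letters were in 16.3% of all promoters, 11.8% of S-phase and 30.9% of G2/M promoters, and the E2F letters in 1.35%, 17.6% and 3.64%. These shares are descriptions of sequence and do not show binding.

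The macrophage marker list holds 14 genes, 4 of which (*C1qa*, *C1qb*, *C1qc* and *Csf1r*) chose the members. All 10 other genes were detected in the members of both libraries, and they summed to 5232 CPM in NOD (UMIs per 1000000 UMIs, not corrected for gene length) and 5041 in CD1, against 6103 and 6291 in the non-cycling macrophages and 177 and 443 in the cycling barcodes with 0 UMIs of the 4 genes. Barcodes were deep: the median was 12285 UMIs in NOD (271039 in all) and 12971 in CD1 (1585668 in all), against 6167 and 7939 in the non-cycling macrophages. Lymphocyte markers were near 0, in part by the rule: T cell markers summed to 36.9 CPM in NOD and 9.46 in CD1, and B cell markers to 25.8 and 3.15. The endothelial list summed to 11.1 and 17.0 CPM, and mast cell markers were at 0 in both. No barcode sequence was shared between the NOD and CD1 members.

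The whole set was not uniform, and 3 members held only 4 UMIs of the 4 macrophage genes, the least the rule allows. The NOD one, with 17251 UMIs, carried 118 of the 142 monocyte-marker UMIs of all NOD members, including all 73 of *Plac8*, and the most interferon-response transcripts per UMI of any member. One of the CD1 pair, with 43597 UMIs, carried 429 of the 463 NK and innate lymphoid marker UMIs, among them 352 of 354 of *Xcl1*, a chemokine of NK and T cells. The third held 533 UMIs in all, 5 of them of *Top2a*. In every other member the 4 genes held at least 10 UMIs. Dendritic cell markers summed to 133 CPM in NOD, led by *Clec9a*, and to 215 in CD1, led by *Siglech*, both below the non-cycling macrophages (381 and 373). Doublet scoring with Scrublet, which was set to mark the highest-scoring 193 NOD and 258 CD1 barcodes, marked 0 NOD and 4 CD1 members.

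Cycling macrophages made up 4.24% of the 448 NOD macrophages (exact 95% interval 2.57 to 6.54) and 5.14% of the 2259 CD1 macrophages (4.26 to 6.13). At the stricter limit of 5 UMIs of *Mki67* and *Top2a* the shares were 1.79% (0.774 to 3.49) and 2.35% (1.76 to 3.06). Among macrophages of at least 2000 UMIs, which leaves out 124 NOD and 359 CD1 barcodes, 18 of 324 and 114 of 1900 were cycling. Thinned to 2000 UMIs each, these macrophages reached 2 UMIs in 2.47% (1.07 to 4.81) in NOD and 2.47% (1.82 to 3.28) in CD1. At a limit of 1 UMI the shares were 11.7% and 12.0% before thinning, and 8.02% (5.31 to 11.5) and 5.21% (4.25 to 6.31) after it. With 1 library per strain these intervals give no test of a difference between the strains, and none is read from them. Free RNA can also place *Mki67* or *Top2a* in a droplet: endothelial barcodes, which do cycle at times, reached 2 UMIs in 1.49% (15 of 1004) in NOD and 0.214% (4 of 1868) in CD1.

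Cycling macrophages were 8.48% (5.18 to 12.9) of the 224 NOD barcodes with at least 2 UMIs of *Mki67* and *Top2a* and 72.0% (64.4 to 78.8) of the 161 CD1 ones. The NOD library held 180 cycling barcodes with 0 UMIs of the macrophage genes and the CD1 library 23. In those, T cell markers summed to 3840 CPM in NOD and 2476 in CD1, with at least 5 UMIs in 168 of 180 and 22 of 23 barcodes, and NK and innate lymphoid markers to 2904 and 5454, with at least 5 UMIs in 123 and 21. Plasma cell markers reached 5 UMIs in 27 and 1 of them. Macrophages also made up a larger part of the CD1 barcodes, so these shares describe the captured cells and not division rates.

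The members differed widely in how many *Mki67* and *Top2a* transcripts they carried. In NOD, 11 members held 2 to 4 UMIs, 2 held 5 to 19 and 6 held 20 or more, up to 150; in CD1 the numbers were 63, 16 and 37, up to 92. Just outside the limit, 24 NOD and 121 CD1 macrophages held exactly 1 UMI, and just inside it 4 and 44 members held exactly 2. Both genes were detected in 9 NOD and 59 CD1 members, *Mki67* alone in 7 and 17, and *Top2a* alone in 3 and 40.

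The other cycle genes (106 genes of the S-phase and G2/M lists) separate the deep end of the set from its edge. Per 10000 UMIs, these genes gave 3.57 at the lowest, 91.5 at the median and 143 at the highest of the NOD members, and 4.00, 71.1 and 232 in CD1. The 95th percentile of the non-cycling macrophages was 24.7 in NOD and 26.5 in CD1, and 15 of 19 NOD and 85 of 116 CD1 members lay above it. All 8 NOD and all 53 CD1 members with at least 5 UMIs of *Mki67* and *Top2a* did so, against 7 of 11 and 32 of 63 of those with 2 to 4. Of the macrophages with exactly 1 UMI, left out by the rule, 9 of 24 and 29 of 121 were also above it. The plot of S-phase against G2/M genes per barcode shows these groups.

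**Figure D1:**
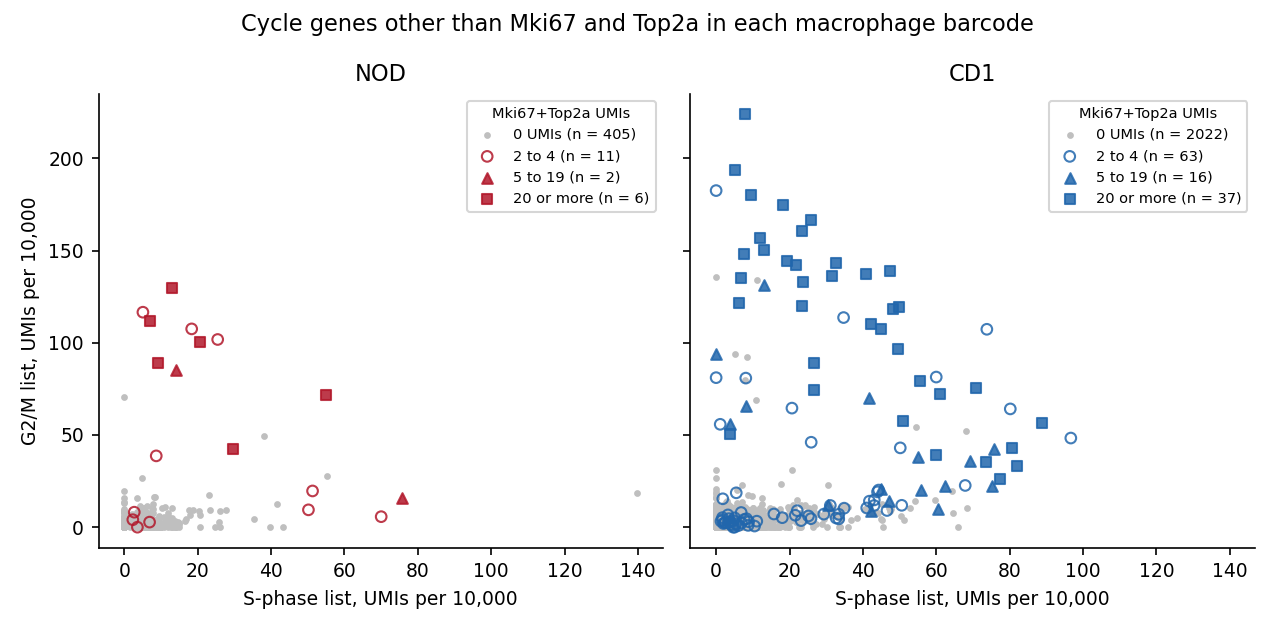
UMIs of the S-phase list (x axis) and the G2/M list (y axis) per 10000 UMIs in each macrophage barcode of the NOD (left) and CD1 (right) libraries. Grey points are non-cycling macrophages (n = 405 and 2022), and open circles, triangles and squares are cycling macrophages with 2 to 4, 5 to 19 and 20 or more UMIs of *Mki67* and *Top2a*. Of the squares, 6 of 6 in NOD and 31 of 37 in CD1 carry more G2/M than S-phase UMIs, and many open circles lie among the grey points.

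By the balance of the lists, members above the non-cycling range carried more S-phase than G2/M UMIs in 4 NOD and 40 CD1 cases, and more G2/M UMIs in 11 and 45. Of the members with 20 or more UMIs of *Mki67* and *Top2a*, 6 of 6 in NOD and 31 of 37 in CD1 were on the G2/M side. *Mki67* and *Top2a* peak in G2 and M, so the rule favors that side. The S-phase list summed to 2557 CPM in NOD members and 3081 in CD1 members (log2 ratio −0.27, −0.39 to −0.15), and the G2/M list to 6254 and 6129 (0.03, −0.05 to 0.10). A single NOD member held 32.7% of the G2/M UMIs of its library, and without it the G2/M ratio was −0.30 (−0.39 to −0.21). Without barcodes holding *Lck*, *Cd79b*, *Nkg7* or *Klrd1* it was −0.41, and with median-of-ratios scaling −0.11, while the median member lay higher in NOD, at 4255 against 2243 CPM. The S-phase ratio was −0.41 without the NOD member with most of its UMIs, and ran from −0.64 at 5 UMIs of *Mki67* and *Top2a* to −0.09 without the lymphoid genes.

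Cycle genes in the members were next described by role, as log2 ratios of summed CPM in cycling over non-cycling macrophages. Genes with at least 20 UMIs over both classes were compared (9881 in NOD, 13575 in CD1). Of these, 9.08% were at least 2-fold higher and 10.4% at least 2-fold lower in NOD cycling macrophages, and 8.06% and 6.05% in CD1. Because the cells were chosen by cycle genes, nothing is read from these counts. With median-of-ratios scaling in place of total UMIs all log2 ratios shift down, by 0.16 in NOD and 0.11 in CD1, and the 897 higher and 1026 lower genes in NOD become 672 and 1292.

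The entry genes were mixed. Of the D-type cyclins, which open G1, *Ccnd1*, *Ccnd2* and *Ccnd3* had log2 ratios of −0.41, −0.82 and −1.91 in NOD. In CD1 they were 0.15 (−0.03 to 0.33), −0.16 (−0.36 to 0.03) and −0.71 (−0.99 to −0.43). *Ccne1* and *Ccne2*, the E-type cyclins of S-phase entry, stood at 17.7 and 22.7 CPM in CD1 cycling macrophages and at 0.198 and 1.65 CPM in non-cycling ones. *E2f7* and *E2f8*, which repress E2F targets late in S phase, were at 35.9 and 70.6 CPM against 0.0659 and 4.68. In NOD the same 4 genes rested on 3 to 10 UMIs each. Over this list, 2 genes were 2-fold higher and 1 lower of 10 compared in NOD, and 8 higher and 0 lower of 15 in CD1.

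Replication genes were higher as lists in both libraries. All 9 licensing genes compared in NOD and all 13 in CD1 were past 2-fold, at 553 against 106 CPM in NOD (log2 2.39, 2.09 to 2.68) and 796 against 156 in CD1 (2.35, 2.25 to 2.45). *Mcm6*, a subunit of the MCM helicase, was at 92.2 CPM in NOD members and 131 in CD1 members, against 22.6 and 26.9. DNA synthesis genes were 2-fold higher in 20 of 23 in NOD and 27 of 27 in CD1 (list log2 2.22 and 2.35). *Rrm1*, the large subunit of ribonucleotide reductase, had 111 and 105 CPM, against 12.8 and 15.1. *Clspn* was at 107 CPM (29 UMIs in 9 cells) in NOD and 102 CPM (161 UMIs in 52 cells) in CD1, against 3.77 and 1.12, and its upstream bases are printed above. Repair genes, among them *Brca1*, *Rad51ap1* and *Bard1* of homologous recombination, had list log2 ratios of 3.13 and 3.16, with 5 of 5 and 10 of 10 genes past 2-fold.

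The mitotic genes showed the widest gaps, which the rule again favors. *Cdk1*, the mitotic kinase, reached 159 CPM in NOD members and 133 in those of CD1, against 3.39 and 2.96 in non-cycling macrophages. Its partner *Ccnb2* was at 84.9 and 99.6 CPM against 3.02 and 2.17. Spindle and kinetochore genes had list log2 ratios of 4.46 (4.29 to 4.63) in NOD and 4.44 (4.37 to 4.51) in CD1, with 22 of 22 and 32 of 32 genes past 2-fold. *Cenpf* was at 240 CPM (65 UMIs in 8 cells) in NOD members and 257 CPM (408 UMIs in 41 cells) in CD1 members, against 0.754 and 1.84. *Birc5* (survivin), of the chromosomal passenger complex, was at 207 and 182 CPM, against 2.26 and 1.98. Of the exit and cytokinesis genes, 13 of 13 in NOD and 14 of 15 in CD1 were past 2-fold, the exception being *Espl1* (separase) in CD1 at 0.58. *Ube2c* had 203 CPM in NOD members and 148 in those of CD1, against 0.377 and 1.12, and *Prc1*, which bundles the midzone microtubules, at 255 and 234 against 1.88 and 1.25. Of the S-phase list as a whole 29 of 32 and 40 of 40 genes were past 2-fold, and of the G2/M list 42 of 42 and 65 of 66.

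The regulator list stood at 207 against 119 CPM in NOD (log2 0.80, 0.36 to 1.21) and 206 against 97.1 in CD1 (1.09, 0.91 to 1.26). Of its genes compared, *Lin9* and *Lin54* of the MuvB complex were past 2-fold and *E2f4* was 2-fold lower of 5 in NOD, and 4 were past 2-fold and 0 lower of 7 in CD1. *Foxm1* and *Mybl2*, transcription factors of the G2/M programme, were at 17.0 and 15.1 CPM in CD1 members against 0.461 and 0.857, and rested on 5 and 4 UMIs in NOD. The chromatin and tubulin genes were past 2-fold in 10 of 10 genes in both libraries (list log2 1.63 and 1.81), with *Hmgb2* at 1188 and 1297 CPM against 173 and 236. The Cdk inhibitor list had log2 ratios of 0.81 in NOD and 1.47 in CD1, with 3 genes 2-fold higher and 1 lower of 5 compared in NOD, and 4 higher and 0 lower of 7 in CD1. *Cdkn2a* pointed in opposite directions, at −2.01 (3 UMIs in members) in NOD and 1.67 in CD1. *Cdkn2c* was at 36.9 and 51.1 CPM against 7.16 and 8.04, and *Cdkn2d* at 44.3 and 54.9 against 8.29 and 7.05. *Cdkn1a* (p21), which halts the cycle after DNA damage, was at 122 CPM in both sets of members, against 59.2 and 34.9.

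By the rule for naming genes, the 10 genes that stood highest in cycling macrophages of both libraries were *Cenpf*, *Ube2c*, *H1f5*, *Prc1*, *Nusap1*, *Birc5*, *Cep55*, *Aspm*, *Kif11* and *Knl1*. All but *H1f5*, a replication-dependent linker histone, belong to the mitotic lists. *H1f5* was at 255 CPM in NOD and 503 in CD1, against 1.88 and 2.83. The 10 lowest were *Dcn*, *Apod*, *F13a1*, *St6galnac3*, *Nr3c2*, *Mucl2*, *Scgb2b26*, *Klhl24*, *Gm53236* and *Ctsl*. *Dcn* (decorin), a fibroblast proteoglycan, had 0 UMIs in NOD members and 3 in CD1 members, against 342 and 318 in the non-cycling macrophages, of which a single barcode held 330 in NOD and 298 in CD1. The non-cycling UMIs of *Apod* (apolipoprotein D) likewise lay in 1 barcode of each library, with 98 of 102 and 92 of 93. *F13a1*, a marker of monocytes, had 2 and 0 UMIs against 67.1 and 7.71 CPM, and 3 barcodes held 74.2% and 80.3% of its non-cycling UMIs. *Mucl2* and *Scgb2b26*, secreted products of the gland, were at 605 and 29.5 CPM in NOD and 395 and 47.3 in CD1, against 1342 and 119 in NOD and 1061 and 113 in CD1. Without the 3 non-cycling barcodes of each library with the highest UMI count of the gene, which held 45.2% and 55.5% of its UMIs in NOD and 27.9% and 30.6% in CD1 (an alternative chosen after the values were seen), the non-cycling levels were 744 and 53.8 CPM in NOD and 767 and 78.5 in CD1. Markers of the gland's secretory cells summed to 229 against 382 CPM in NOD and 423 against 928 in CD1, and the non-cycling sums were 267 and 851 without the 3 barcodes with the highest UMI count of the list. Per barcode the NOD median went the other way, at 139 CPM in members (15 of 19 with a UMI) and 0 in non-cycling macrophages (185 of 405), while in CD1 the medians were 238 and 400. The free-RNA part of the UMIs, estimated from plasma cell transcripts relative to empty droplets, was 1.32% in NOD cycling and 1.87% in NOD non-cycling macrophages, and 1.22% and 1.39% in CD1. In the empty droplets the secretory markers themselves summed to 252 CPM in NOD and 4481 in CD1. The part of free RNA in these differences was not tested.

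The programmes that macrophages carry were then compared between cycling and non-cycling cells of the same library. Transcripts of MHC class II genes were lower in the cycling macrophages of both libraries, by less than 2-fold. The list summed to 23071 against 32926 CPM in NOD (log2 −0.51, −0.55 to −0.48) and to 29127 against 43546 in CD1 (−0.58, −0.59 to −0.57). In each, 0 of 8 genes were past 2-fold, beside 10.4% and 6.05% of all genes 2-fold lower. *H2-Ab1*, a chain of the class II molecule, was at 4284 against 6527 CPM in NOD and 5440 against 8537 in CD1. *Cd74*, the invariant chain, was at 7246 against 10154 and 11181 against 16155. In the members with at least 5 UMIs of *Mki67* and *Top2a* the list's log2 ratios were −0.45 and −0.86. Within the members, those above the non-cycling range of other cycle genes held 20873 CPM in NOD and 25227 in CD1, and those within the range 34410 and 41382.

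Phagocytic and lysosomal genes followed the same direction (log2 −0.55, −0.59 to −0.51 in NOD and −0.57, −0.58 to −0.55 in CD1). Members above the non-cycling range of other cycle genes were at 19763 CPM against 18637 in those within it in NOD, and at 26157 against 34802 in CD1. *Apoe*, the lipid carrier, was at 3088 against 5173 CPM in NOD and 5568 against 11881 in CD1. *Cst3* (cystatin C), a protease inhibitor, was at 7851 against 13000 and 13223 against 18402. *Ctsl*, a lysosomal protease, was past 2-fold lower in both, at 25.8 against 101 CPM and 34.7 against 101. The CSF1 axis list had ratios of −0.26 and −0.31 and the tissue-resident list −0.42 and −0.22. *Csf1r* itself, part of the rule, was at 705 against 793 CPM and 933 against 982. MHC class I genes had ratios of 0.11 and 0.14, oxidative phosphorylation genes 0.18 and 0.19, glycolysis 0.26 and 0.41 and ribosomal protein genes −0.41 and −0.15, so that none of these 4 lists differed by 2-fold in either library, and that of MHC class I in NOD is below 0 once the scaling shift of 0.16 is taken off. The plot of list ratios in each library gives the macrophage lists and the cycle lists by role other than the regulators. The cell type marker lists and the combined S-phase and G2/M lists are not drawn.

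**Figure D2:**
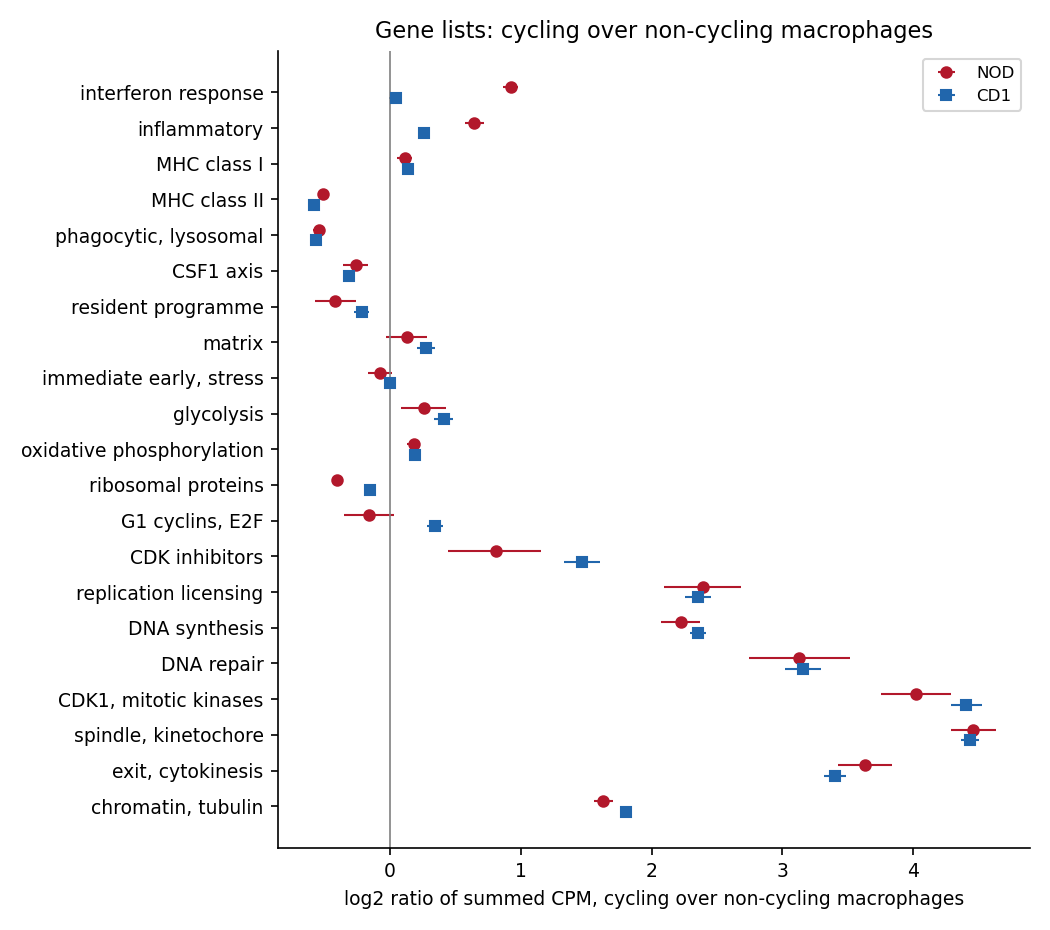
Log2 ratio of summed CPM in cycling over non-cycling macrophages (x axis) for the gene lists named on the y axis. Circles are NOD and squares CD1, with 95% intervals for counting error. The replication and mitotic lists lie far to the right in both libraries by the choice of cells, the MHC class II and phagocytic lists lie left of 0 in both, and the interferon list is at 0.92 in NOD and 0.04 in CD1.

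Of the macrophage lists, the interferon-response list had the ratio that differed most between the libraries. It summed to 10157 CPM in NOD cycling against 5357 in NOD non-cycling macrophages (log2 0.92, 0.86 to 0.98) and to 2082 against 2022 in CD1 (0.04, −0.01 to 0.09). In NOD 8 of 38 genes were 2-fold higher and 2 lower, beside 9.08% and 10.4% of all genes compared. In CD1 0 were higher and 2 lower, beside 8.06% and 6.05%. Most of the NOD excess was in 2 chemokines that recruit T cells through CXCR3. *Cxcl10* was at 1675 against 172 CPM in NOD and 97.1 against 59.2 in CD1, and *Cxcl9* at 1579 against 318 in NOD and 30.3 against 39.5 in CD1. *Cxcl9* came from 5 of the 19 NOD members and *Cxcl10* from 9. The NOD member rich in monocyte markers held 189 *Cxcl9* and 148 *Cxcl10* UMIs. When the macrophage genes had to reach 10 UMIs, which removes the NOD member rich in monocyte markers, the NOD ratio of the list was 0.66 and the CD1 ratio 0.05. Members above the non-cycling range of other cycle genes were at 9051 CPM in NOD and 2143 in CD1, and those within it at 15864 and 1889. The 4 NOD members within the range include the one rich in monocyte markers.

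The strains were compared directly in the cycling macrophages, a contrast that the rule did not use. Of 8730 genes with at least 20 UMIs over both sets of members, 6.72% were at least 2-fold higher in NOD (587). In CD1 10.3% were at least 2-fold higher (898). Here and in the other comparisons a gene was counted by its ratio alone, without its interval. Counting noise in genes with few UMIs therefore enters these shares. Median-of-ratios scaling moves all these log2 ratios down by 0.14 and the counts to 446 and 1106.

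Interferon-response genes, whose transcription interferons induce, were higher in NOD. In the members the list ran from 1058 CPM at the lowest over 7054 at the median to 36172 at the highest in NOD, and from 0 over 1297 to 17405 in CD1. The sets overlap, but 17 of the 19 NOD members lay above the CD1 median and 3 above the highest CD1 member. Summed over members the list was at 10157 CPM in NOD and 2082 in CD1, a log2 ratio of 2.29 (2.21 to 2.36), and 29 of the 34 genes compared were 2-fold higher in NOD and 0 higher in CD1, beside the 6.72% and 10.3% of all genes. The median gene had a ratio of 2.13. The non-cycling macrophages of the same libraries had a list ratio of 1.41 (1.38 to 1.43). With at least 10 UMIs of the macrophage genes the ratio in the members was 2.00.

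**Figure D3:**
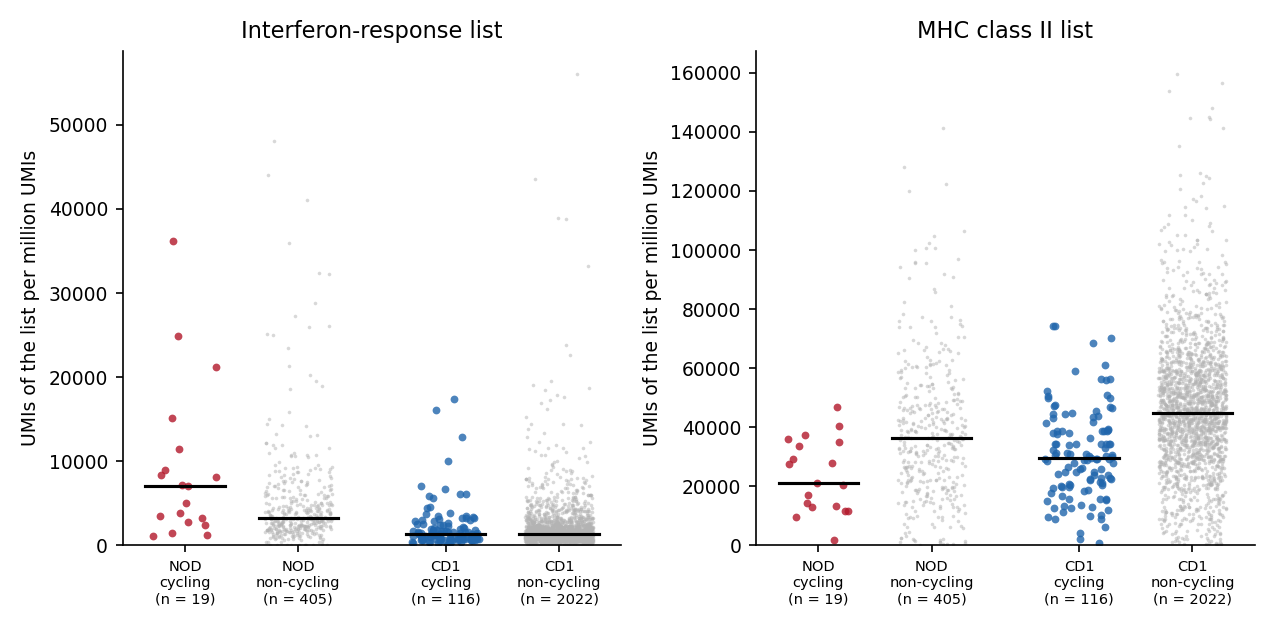
UMIs of the interferon-response list (left) and the MHC class II list (right) per 1000000 UMIs (y axes) in each cycling macrophage (colored points; n = 19 NOD and 116 CD1) and each non-cycling macrophage (grey points; n = 405 and 2022), with the median as a bar. NOD members have a median of 7054 for the interferon list against 1297 in CD1, and 21136 against 29504 for MHC class II.

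The genes past 2-fold included transcription factors, antiviral effectors, GTPases and chemokines. *Irf1*, a transcription factor induced by interferon, reached 325 CPM in NOD members against 56.8 in those of CD1 (log2 2.52, 2.08 to 2.96), while in non-cycling macrophages its ratio was 0.56. *Isg15*, a ubiquitin-like modifier, was at 236 and 33.4 CPM (2.82, 2.27 to 3.37). The guanylate-binding protein *Gbp5* was at 137 and 12.0 CPM (3.51, 2.67 to 4.39). *Cxcl10* had a ratio of 4.11 (3.84 to 4.38), with a UMI in 9 of 19 NOD and 23 of 116 CD1 members, and *Cxcl9* a ratio of 5.71 (5.27 to 6.17), with a UMI in 5 and 2. *Iigp1*, an immunity-related GTPase with close paralogs between which reads can be split, had 50 UMIs in NOD and 1 in CD1 (8.19, 5.65 to 13.52).

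The genes not past 2-fold were *Irf9* (0.41), *Ifit3* (0.06), *Oasl2* (0.77), *Mx1* (0.81) and *Xaf1* (0.96). *Ifit3* and *Mx1* rested on 5 and 6 UMIs in NOD members and were at 18.4 and 22.1 CPM there, against 73.9 and 79.9 in NOD non-cycling macrophages. The chemokine UMIs were concentrated in 3 of the 19 NOD members. These 3 held 189, 2 and 192 of the 428 *Cxcl9* UMIs and 148, 157 and 112 of the 454 *Cxcl10* UMIs. The member with 189 and 148 is the one rich in monocyte markers, with only 4 UMIs of the macrophage genes that chose the members. Its other cycle genes lay within the non-cycling range, so its UMIs may not be those of a cycling macrophage. *Bst2*, a restriction factor at the cell surface, was more even, with a UMI in 19 of 19 NOD and 90 of 116 CD1 members and a ratio of 1.17 (0.85 to 1.47). Without the NOD member with most interferon UMIs the list ratio was 2.04, and 2.15 when the CD1 member with most was left out as well.

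**Figure D4:**
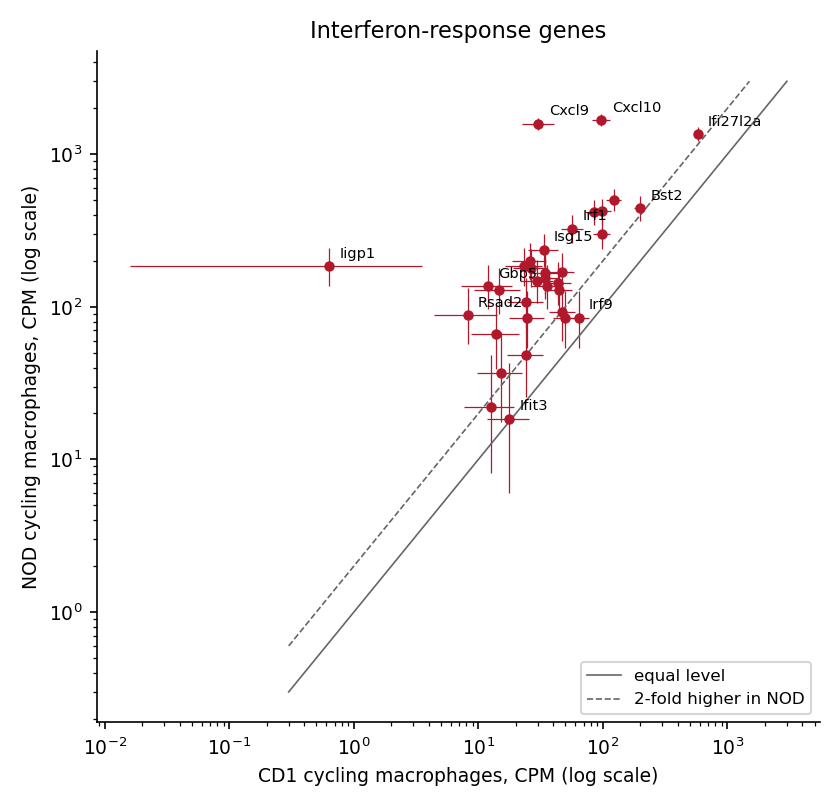
Level of 34 interferon-response genes in cycling macrophages of CD1 (x axis) and NOD (y axis), in CPM on log scales, with exact 95% Poisson intervals for counting error. The solid line marks equal levels and the dashed line a 2-fold higher level in NOD, and 29 of the 34 genes lie on or above the dashed line.

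Transcripts of antigen presentation genes split by class. MHC class I genes were at 9552 CPM in NOD and 6592 in CD1 members (0.54, 0.47 to 0.60). Of these 3 of 12 were 2-fold higher in NOD, beside 6.72% of all genes. They were *Tap1* (1.40), a subunit of the peptide transporter, *Psme2* (1.25), a proteasome activator, and *Nlrc5* (2.16), the transactivator of class I genes. MHC class II genes were at 23071 CPM in NOD and 29127 in CD1 (−0.34, −0.37 to −0.30), and in the members ran from 1692 over 21136 to 46945 in NOD and from 782 over 29504 to 74241 in CD1. The sets overlap almost wholly. *Ciita*, the class II transactivator, went the other way, at 321 and 143 CPM (1.17, 0.80 to 1.53). In members with at least 5 UMIs of *Mki67* and *Top2a* the class II difference was gone (0.00, −0.04 to 0.05), and in non-cycling macrophages the ratios were 0.56 for class I and −0.40 for class II.

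Chemokine and activation genes differed gene by gene. Of 17 inflammatory genes compared 7 were 2-fold higher in NOD and 1 in CD1, beside 6.72% and 10.3% of all genes. The list ratio was 0.80 (0.72 to 0.88), and 0.38 without the NOD member with most of its UMIs. *Ccl12*, a ligand of CCR2, was at 819 CPM (13 of 19 members) in NOD and 99.0 (52 of 116) in CD1, a ratio of 3.05 (2.75 to 3.35), and *Ccl2* at 480 and 59.3 CPM (3.02, 2.62 to 3.41). *Ccl7* and *Ccl8* had 37 and 41 UMIs in NOD members against 3 and 6 in CD1, but 97.6% of the *Ccl8* UMIs came from 1 member. *Cd86*, a costimulatory ligand, was at 1682 and 542 CPM (1.63, 1.47 to 1.80), and 0.78 without the NOD member that held 48.7% of its UMIs. *Cxcl2*, which attracts neutrophils, was lower in NOD, at 81.2 and 192 CPM (−1.24, −1.94 to −0.62). *Tnf* (0.36, −0.02 to 0.72) and *Il1b* (0.26, −0.42 to 0.89) had intervals that include 0.

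Genes of lipid handling, tissue residence and matrix differed in both directions. The phagocytic list had a ratio of −0.53 (−0.57 to −0.49), with *Apoe* at −0.85 (−0.95 to −0.75) and *Spp1* (osteopontin) at 18.4 CPM in NOD and 216 in CD1 (−3.55, −5.18 to −2.32). *Pf4*, a chemokine of platelets and resident macrophages, was at 48.0 and 145 CPM (−1.60, −2.53 to −0.79), and *Cx3cr1*, the fractalkine receptor, at 1011 and 1280 (−0.34, −0.53 to −0.16). *Lyve1*, *Timd4*, *Cd163* and *Vsig4*, markers of some resident macrophages, had 0 UMIs in the members of both libraries. *Mertk*, the efferocytosis receptor, was at 118 CPM in NOD and 6.94 in CD1 (4.09, 3.06 to 5.23), from 5 NOD members of which 1 held 56.3% of its UMIs. In the CSF1 axis list 3 of 12 genes were 2-fold higher in NOD, beside 6.72% of all genes, and the list ratio was −0.15. The 3 were the transcription factors *Cebpb* (1.69), *Irf8* (1.05) and *Maf* (2.19). Of the matrix genes *Mmp12* (macrophage elastase) was at 22.1 and 346 CPM (−3.97, −5.42 to −2.84), all from 1 NOD member, and *Tgfbi* at 605 and 270 (1.16, 0.90 to 1.43).

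No direction held for the mitotic genes between the strains, as the values of the G2/M list above show. The mitotic kinase list had a ratio of 0.00 (−0.17 to 0.18) and the spindle list −0.02 (−0.12 to 0.08). Of 19 kinase genes 1 was 2-fold higher and 0 lower in NOD, and of 32 spindle genes 0 and 1. Among all genes compared these shares were 6.72% and 10.3%. The earlier steps had lower values in NOD. The licensing list was at 553 and 796 CPM (−0.52, −0.78 to −0.28), with a ratio of −0.56 in the non-cycling macrophages too. The G1 cyclin and E2F list was at 933 and 1471 (−0.66, −0.85 to −0.47). Its ratio was −0.26 after thinning each member to 2000 UMIs, and −0.16 in non-cycling macrophages. In this list 6 of 15 genes were 2-fold higher in CD1, beside 10.3% of all genes. *Cdk6*, a partner of the D-type cyclins, was at 284 CPM in NOD and 579 in CD1 (−1.03, −1.38 to −0.69), with a ratio of −0.65 in the non-cycling macrophages. *Stmn1* (stathmin), a tubulin-binding protein, was at 133 and 492 CPM (−1.89, −2.41 to −1.41), and *Cdkn2a*, which encodes p16 and ARF, had 3 and 70 UMIs (−2.00, −4.31 to −0.39). Monocyte markers were at 524 CPM in NOD and 100 in CD1 members, with *Plac8* as the most abundant gene in NOD and *Itgal* in CD1, and in the non-cycling macrophages at 494 and 100. With at least 10 UMIs of the macrophage genes the monocyte list ratio in the members was 0.65, and without the NOD member that held most of its UMIs −0.08, and its part in the other differences was not tested.

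**Figure D5:**
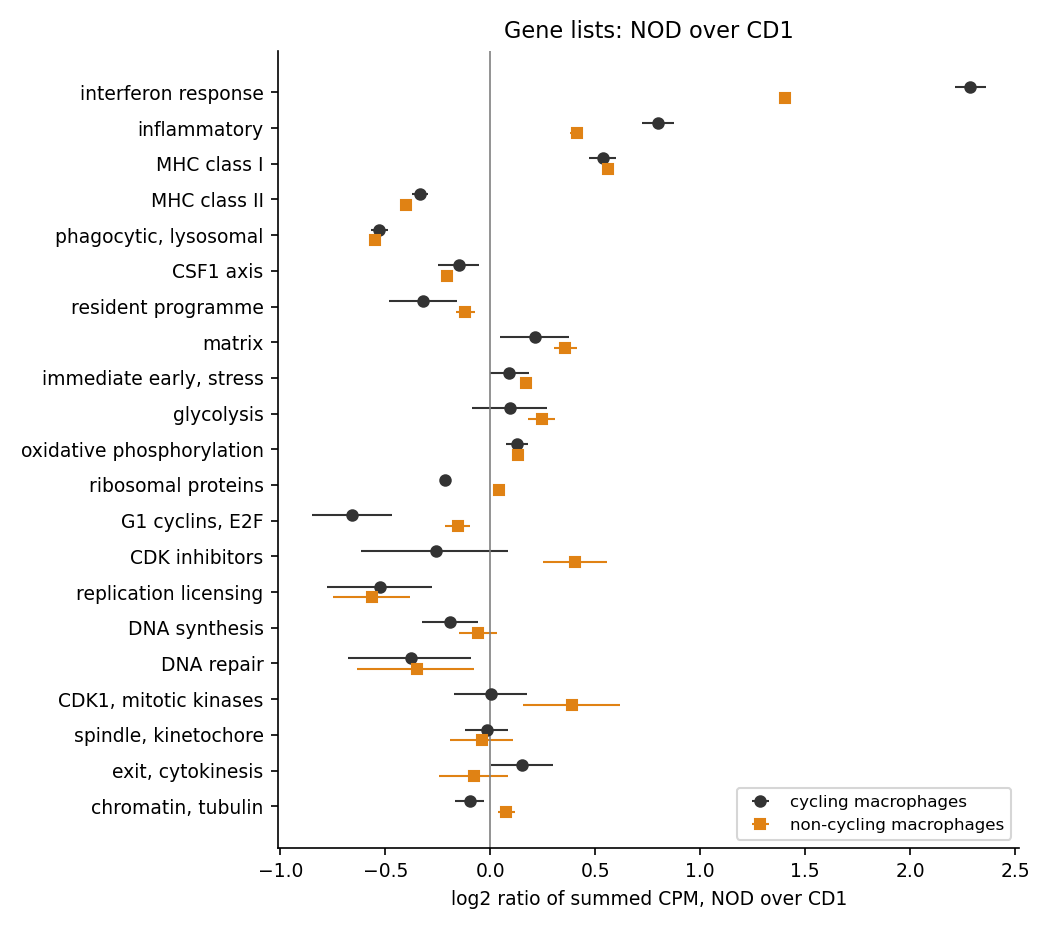
Log2 ratio of summed CPM in NOD over CD1 (x axis) for the gene lists named on the y axis. Dark circles are cycling and orange squares non-cycling macrophages, with 95% intervals for counting error. The interferon list is at 2.29 in cycling and 1.41 in non-cycling macrophages.

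Outside the lists, the 10 genes highest in NOD over CD1 members were *Gvin3*, *Serpina3g*, *Il1rn*, *Gm15056*, *AA467197*, *Cfb*, *Iigp1c*, *Iqgap2*, *Vcam1* and *H2-M2*. *Gvin3*, a very large interferon-inducible GTPase, was at 546 CPM in 15 of 19 NOD members and at 3.15 CPM in 2 of 116 CD1 members (7.44, 6.18 to 9.08), and at 444 and 2.44 CPM in the non-cycling macrophages. *Serpina3g*, of a family of near-identical serpins, had 31 UMIs in NOD members and 0 in CD1, at least 60.5-fold higher against a floor of 3 UMIs over the CD1 members. *Vcam1*, an adhesion molecule, was at 162 CPM in 8 NOD members and 3.15 in 4 CD1 members (5.69, 4.36 to 7.38). For *Il1rn*, *Gm15056*, *AA467197*, *Cfb* and *H2-M2* 1 member held 94.9%, 100%, 100%, 92.9% and 80.0% of the NOD UMIs, so these values describe single cells.

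The 10 genes highest in CD1 were *Arsb*, *Hdac9*, *Rtn4rl1*, *H3c3*, *Fhit*, *Adam22*, *Abcb1b*, *Hpgd*, *Gm53236* and *Alcam*. *Arsb*, a lysosomal sulfatase, was at 81.2 CPM in NOD and 970 in CD1 (−3.58, −4.26 to −2.98), nearly as in the non-cycling macrophages (−3.67). *Hpgd*, which breaks down prostaglandins, was at 122 and 728 CPM (−2.58, −3.13 to −2.08). *Abcb1b*, an efflux transporter with a close paralog, had 0 UMIs in NOD members and 106 in CD1, at least 6.04-fold lower, and also 0 UMIs in the 405 NOD non-cycling macrophages, where CD1 had 86.7 CPM. *Alcam*, an adhesion molecule, was at 29.5 and 211 CPM (−2.84, −4.06 to −1.84) in the cycling but at 145 and 79.9 in the non-cycling macrophages.

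*H3c3*, a replication-dependent histone whose near-identical copies can share reads, had 0 UMIs in the 19 NOD members and 128 in 36 CD1 members, at least 7.29-fold lower in NOD. The other cycling barcodes showed a gap in the same direction, at 4.17 CPM in NOD and 76.5 in CD1, and the non-cycling macrophages held 0 and 1 UMIs. All 67 replication-dependent histone genes together were at 1162 CPM in NOD and 1618 in CD1 members (−0.48, −0.65 to −0.31). In the other cycling barcodes they were at 887 and 741. This set was taken up after *H3c3* was seen and includes it, so the sum is not separate from the *H3c3* values.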

How the data were processed

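Per the labels, the authors counted reads with Cell Ranger 8.0.0 and used GRCm39, Seurat 5.0.1 and R 4.3.1. The deposited values are raw UMI counts per gene and barcode, with no cell filter applied. The labels and the paper's methods differ on the number of mice per pool and on the digestion enzymes. Barcodes were filtered and chosen as stated above. The members and gene lists were chosen with earlier results of these data known. UMIs were summed over the barcodes of a class in each library and divided by the class total (CPM). CPM values have exact Poisson, log2 ratios conditional binomial, and shares Clopper-Pearson 95% intervals, which cover counting error only. Genes with at least 20 UMIs over both classes entered a comparison. A class at 0 UMIs was set to a floor of 3 UMIs over the class for a bound. Beside the genes of the lists, genes were named by the interval bound nearest 0, 10 in each direction (between the strains, of genes outside the lists), and 5 in each direction for the difference between libraries. The code was run in Python 3.11.15 with scanpy 1.11.5 and was tested on simulated data. A gene of the interferon-response list, included in its sums and counts, is not reported here by itself. Barcodes marked by Scrublet were kept. Alternatives were their removal, stricter marker limits, other mitochondrial limits, thinning to 2000 UMIs, other gene minimums, other scalings and a mean over cells.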

Additional observations from a re-analysis of the deposited data

Results flagged for a closer look

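The ratio of cycling over non-cycling macrophages pointed in opposite directions in the 2 libraries for 10 named genes and 1 list, each by at least 0.5 on the log2 scale and with intervals on opposite sides of 0. With 1 library per strain the difference itself was not tested. *Il1rn*, the interleukin-1 receptor antagonist, had a log2 ratio of 3.41 in NOD and −2.79 in CD1, a difference of 6.19, and −0.78 in NOD without the member that held 94.9% of its UMIs. *Mertk* differed by 4.08 (2.12 in NOD and −1.96 in CD1), and its NOD ratio was 1.18 without the top member. *Irf1* differed by 1.96 (1.28 and −0.68), and its NOD ratio was 0.88 without the top member. *Gbp2* differed by 1.53 (0.66 and −0.87) and *Ifi204* by 1.42 (0.54 and −0.88), with NOD ratios of −0.37 and 0.02 without the top member. *Ccl5* differed by 1.93 (1.34 and −0.59), with 91.8% of the NOD UMIs in 1 member and a ratio of −2.16 without it.

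The other genes were lower in NOD and higher in CD1 cycling macrophages. *Alcam* differed by −3.70 (−2.30 and 1.40), *Cdkn2a* by −3.68 (−2.01 and 1.67), *Ccr2*, the receptor that brings monocytes into tissue, by −2.70 (−1.94 and 0.75) and *Mmp12* by −2.54 (−1.96 and 0.58). The NOD members held 3 UMIs of *Cdkn2a* and 6 of *Mmp12*. The list of NK and innate lymphoid markers differed by −2.57 (−0.81 and 1.76), with 429 of the 463 CD1 UMIs in 1 member. Without that member the CD1 ratio was −1.97 (−2.51 to −1.48), on the same side as NOD.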

How the results depend on the processing

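With 19 NOD members, 1 library per strain and pooled mice, no value here has an error beyond counting, and single members carry several NOD values. Members with 2 to 4 UMIs of *Mki67* and *Top2a* include cells whose other cycle genes lie in the non-cycling range. No paired analysis was possible because each strain has 1 library, and no replicate could be left out. Of the recomputed values for the main comparisons, 73 stayed within the counting interval (for numbers of genes or barcodes, within 1.5 times), 54 moved and 1 passed 0. For the other comparisons 198 stayed, 126 moved and 1 passed 0. Values below 0 for the G2/M ratio between the strains, whose interval held 0, were not counted as passing it.

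The NOD over CD1 ratio of MHC class II (−0.34) was lost, at 0.0040, at 5 UMIs of *Mki67* and *Top2a*. It was −0.28 at 5% mitochondrial UMIs, −0.39 both at 10 macrophage-gene UMIs and as a mean over cells, −0.47 with median-of-ratios scaling, and −0.44 without the member with most UMIs of the list, in NOD or in each library. The interferon ratio (2.29) was 2.44 without barcodes holding *Lck*, *Cd79b*, *Nkg7* or *Klrd1*, 2.18 after thinning, 2.00 at 10 macrophage-gene UMIs, 2.08 as a mean over cells, and 2.15 both with that scaling and without the top member of each library, and 2.04 without that of NOD. The monocyte ratio (2.39) was lost, at −0.0845, without the top NOD member. In members above the non-cycling range, an alternative chosen after seeing the data, as was leaving out top members, the MHC class II and interferon ratios were −0.27 and 2.08.

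In cycling over non-cycling macrophages, MHC class II in NOD (−0.51) was −0.60 without lymphoid genes, −0.45 at 5 UMIs of *Mki67* and *Top2a*, −0.55 at 20% mitochondrial UMIs, −0.64 at 10 macrophage-gene UMIs, −0.71 as a mean over cells, −0.67 with that scaling, −0.66 above the range and −0.61 without the top NOD member. In CD1 (−0.58) it was, at the same settings where it moved, −0.62, −0.86, −0.60, −0.59, −0.69 with that scaling and −0.79 above the range, with −0.64 at 5% mitochondrial UMIs, −0.54 after thinning and −0.56 with the cycle lists out of the total. The NOD minus CD1 difference of the interferon ratios (0.88) was 1.06 without lymphoid genes, 1.02 at 5% mitochondrial UMIs, 0.79 both after thinning and as a mean over cells, 0.61 at 10 macrophage-gene UMIs, 0.67 above the range, 0.75 without the top member of each library and 0.64 without that of NOD.

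The shares moved to 1.79% in NOD and 2.35% in CD1 at 5 UMIs of *Mki67* and *Top2a*, to 8.02% in NOD at 1 UMI after thinning to 2000 UMIs, to 2.47% in both at 2 UMIs after thinning, and to 11.7% and 12.0% at 1 UMI without it in barcodes of at least 2000 UMIs. The last pair of settings was added after seeing the data. Other cycling barcodes numbered 47 and 4 at 5 UMIs, and 108 in NOD at 5% mitochondrial UMIs. Genes 2-fold higher numbered 280 in NOD and 393 in CD1 at 50 UMIs per gene, and 892 in NOD at 10. The causes were not tested.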

Other observations

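Genes with at least 20 UMIs in each of the 4 classes (2732) were ranked by the difference of the cycling over non-cycling ratio between NOD and CD1. The 5 with the lowest values were *Gsn*, *Vim*, *Crip1*, *Cd44* and *Fgf13*. *Vim* (vimentin), an intermediate filament, was at 336 CPM in cycling and 341 in non-cycling macrophages of NOD, and at 239 and 93.2 in CD1. *Crip1*, a LIM-domain protein, was at 247 and 318 CPM in NOD and at 334 and 165 in CD1, and *Cd44*, the hyaluronan receptor, at 84.9 and 101 in NOD and at 57.4 and 31.6 in CD1. In the non-cycling macrophages the NOD over CD1 log2 ratios of these 3 genes were 1.87, 0.95 and 1.68, and in the cycling ones 0.49, −0.43 and 0.56.

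The 5 with the highest values were *Egr3*, *Cxcl9*, *Cxcl10*, *Sod2* and Cp. *Sod2*, the mitochondrial superoxide dismutase, was at 277 and 61.8 CPM in NOD and at 38.5 and 48.6 in CD1, with 62.7% of the NOD UMIs in 1 member. For *Egr3* and Cp, 1 member held 97.9% and 70.4% of the NOD UMIs.

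The cycling macrophages were set against the other cycling barcodes of the same library, most of which carried T cell or NK and innate lymphoid markers. Their G2/M list was at 6254 against 2861 CPM in NOD and 6129 against 4222 in CD1. Both sets were chosen by *Mki67* and *Top2a*, which peak in G2 and M. A smaller share of the other cycling barcodes reached 5 UMIs of these genes, as the numbers above show. A single NOD member held 32.7% of the G2/M UMIs, and without it the NOD members were at 4994 CPM. The part of these limits in the difference was not tested. The S-phase list was at 2557 against 2428 CPM in NOD and at 3081 against 1588 in CD1. The interferon-response list was at 10157 against 4195 CPM in NOD and 2082 against 1690 in CD1.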
